A study of Mus musculus with 24 samples.

Results

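The genes described here are the constitutive androstane receptor CAR (Nr1i3), the pregnane X receptor PXR (Nr1i2) and 8 genes known as their targets in mouse liver: Cyp2b9, Cyp2b10, Cyp2b13, Cyp2a4, Cyp2a5, Cyp3a11, Abcc3 and Por. They were read in liver, with fat for contrast, on 24 Affymetrix arrays from 12 mice of a mixed 129/Sv and C57BL/6 background, with 3 mice in each of 4 groups. The groups were mice lacking GPR120 (KO) on a high-fat diet (HFD), wild-type mice (WT) on HFD, KO mice on a normal diet (ND) and WT mice on ND, and every mouse gave both liver and epididymal fat. GPR120, the product of Ffar4, is a cell surface receptor for long-chain fatty acids. The series title ties it to obesity on HFD, and the comparisons ask how its absence and the diet moved these genes. The sources used here do not give the cell types in which the gene was lost, the ages of the mice, the weeks on diet or whether KO and WT mice were littermates.

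A gene was read by the probe sets that the platform annotation assigns to it alone, and the brightest one of each tissue stood for it. Of the 10 genes, 7 had such a probe set, among 18193 genes in the whole series. Cyp2a4 and Cyp2a5 share 1 probe set that names both, so neither has a value of its own, and no probe set is listed for Por, the flavoprotein that passes electrons to microsomal P450 enzymes. Values are MAS5 signals in intensity units, on which different probe sets cannot be ranked against each other. A gene was tested in a tissue if its mean log2 signal reached that of the median probe set, at a signal of 13.0 in liver and 19.3 in fat. Nr1i2, Nr1i3, Cyp2b9, Cyp2b10, Cyp3a11 and Abcc3 passed in liver, and Cyp2b10, Cyp3a11 and Abcc3 in fat. Cyp2b13 fell under it in both tissues, with geometric means of 8.58 in liver and 4.22 in fat.

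CAR and PXR are nuclear receptors of hepatocytes that sense drugs, bile acids and other lipophilic compounds. Each binds DNA with the retinoid X receptor and raises genes of phase 1 oxidation (cytochromes P450), phase 2 conjugation and export from the cell. Cyp2b10 is the classical CAR target of mouse liver and Cyp3a11 the classical PXR target, although each receptor can act on both. Cyp2b9 and Cyp2b13 are closely related P450 genes known for higher expression in female than in male mouse liver. Abcc3 encodes a basolateral pump for conjugated bile acids and glucuronides.

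The 3 Cyp2b genes are shown first at the level of DNA, because they are neighbours in one cluster on chromosome 7 and similar in sequence. RefSeq (GRCm38.p6) promoter windows of 300 bases were matched for 9 of the 10 genes. Each window holds 250 bases before the start that the RefSeq table uses and 50 from it on, all 3 here on the plus strand, at chr7:26173159-26173458 for Cyp2b9, chr7:26061245-26061544 for Cyp2b13 and chr7:25897408-25897707 for Cyp2b10. That start is the first base of the annotated span of Cyp2b10, and lies 59 and 107 bases inside the span of Cyp2b9 and Cyp2b13. Capitals mark a nuclear receptor half-site, AGGTCA.
Cyp2b9: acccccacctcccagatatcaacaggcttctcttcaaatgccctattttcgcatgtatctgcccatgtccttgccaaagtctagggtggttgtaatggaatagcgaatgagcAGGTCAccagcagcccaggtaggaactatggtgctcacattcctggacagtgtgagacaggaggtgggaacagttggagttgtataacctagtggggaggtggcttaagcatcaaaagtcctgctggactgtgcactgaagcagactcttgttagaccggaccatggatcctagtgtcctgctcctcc
Cyp2b13: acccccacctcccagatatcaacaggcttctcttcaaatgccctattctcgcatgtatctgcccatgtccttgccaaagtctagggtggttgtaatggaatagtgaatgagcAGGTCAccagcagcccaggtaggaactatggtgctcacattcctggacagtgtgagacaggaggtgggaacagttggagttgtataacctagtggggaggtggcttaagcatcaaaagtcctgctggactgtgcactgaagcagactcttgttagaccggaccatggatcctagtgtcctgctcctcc
Cyp2b10: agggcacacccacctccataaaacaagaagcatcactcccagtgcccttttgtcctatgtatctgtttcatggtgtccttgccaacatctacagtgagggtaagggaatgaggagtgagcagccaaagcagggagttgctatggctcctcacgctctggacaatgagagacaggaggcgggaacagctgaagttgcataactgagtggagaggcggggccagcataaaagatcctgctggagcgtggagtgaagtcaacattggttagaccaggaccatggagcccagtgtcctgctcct

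The windows of Cyp2b9 and Cyp2b13 were identical at 298 of 300 bases (99.3%). Counted from 1 at the 5′ end, with the Cyp2b9 base first, they differed by T48C and C104T. Cyp2b10 was 71.7% identical to either one in a gapped alignment. The half-site AGGTCA lay 138 bases before that start in both Cyp2b9 and Cyp2b13, and the Cyp2b10 window held none of the 4 half-site spellings searched (AGGTCA, with the variants AGTTCA or else GGTTCA or else GGGTCA, on both strands). AGGTCA was found in 16.3% of 32851 mouse promoter windows of this length and any of the 4 spellings in 43.7%, so a half-site is common. A pair of these half-sites spaced as DR3 or DR4 (direct repeats with 3 or 4 bases between) or ER6 (an everted repeat with 6 between), arrangements known for CAR and PXR, was in none of the 9 windows. These pairs contain the half-sites and overlap with them, and they occurred in 0.0396%, 0.0822% and 0.0304% of all windows for DR3, DR4 and ER6. With pairs this rare, their absence from 9 windows says little. DNA farther than 250 bases before the start was not searched, so sites there cannot be judged.

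Liver arrays were alike, with Spearman's rho of 0.926 to 0.954 between any 2 of them, and none stood apart. In fat on HFD Ffar4 read 23.1 to 30.5 in KO mice, against 97.3 to 171 in WT mice (adjusted p = 0.000215, limma). On ND it read 33.7 to 35.7 in KO mice, against 58.3 to 73.7 in WT mice. Those groups did not overlap, but the difference (log2 -0.90, adjusted p = 0.111) missed the threshold. In liver it lay too low to be tested and ran the other way, at 13.5 to 18.3 in KO livers and 0.55 to 1.63 in WT livers on HFD, and at 21.5 to 36.8 in KO livers and 1.07 to 17.3 in WT livers on ND. The position of its probe set relative to the deletion is not stated in the labels. All adjusted p-values below are Benjamini-Hochberg values from limma over all genes tested in the tissue, called at 0.05. In whole tissue, fewer cells of a type and less RNA per cell cannot be told apart, and 3 arrays a group limit the precision.

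The 2 receptors were lower on HFD than on ND in KO livers. Nr1i2 (PXR) had signals of 144, 146 and 146 in the 3 KO mice on HFD, against 251, 274 and 322 in KO mice on ND. The HFD arrays all lay below the ND arrays, and the log2 difference was -0.95 ± 0.19 (SE), a fall of 1.93-fold (adjusted p = 0.00595). In WT mice Nr1i2 had 171, 212 and 177 on HFD, against 247, 184 and 358 on ND. These groups overlapped through the ND mouse at 184, and the difference of -0.45 did not pass (adjusted p = 0.157). It was -0.68 without that mouse (687) (adjusted p = 0.0340) and -0.20 without mouse 690 (adjusted p = 0.486), and leaving out mouse 687 was the only omission of 1 array under which it passed.

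Nr1i3 (CAR) had 477, 806 and 473 in KO mice on HFD, against 1331, 1047 and 1219.6 in KO mice on ND. Again no HFD array reached the lowest ND array, and the log2 difference was -1.08 ± 0.21 (2.11-fold, adjusted p = 0.00492). WT mice had 686, 712 and 663 on HFD, against 614, 954 and 1018 on ND, with overlapping groups and a difference of -0.29 (adjusted p = 0.405). Neither receptor passed between genotypes. The KO arrays for Nr1i2 lay below the WT arrays on HFD, though not in its other probe set, where the groups overlapped. For Nr1i3 the KO arrays lay above the WT arrays on ND. The genotypes overlapped for Nr1i3 on HFD and for Nr1i2 on ND. KO minus WT was -0.35 for Nr1i2 and -0.28 for Nr1i3 on HFD (adjusted p = 0.297 and 0.470), and 0.15 and 0.50 on ND (adjusted p = 0.712 and 0.194). The diet effect was not shown to differ between genotypes for either receptor, with interactions of -0.50 ± 0.28 for Nr1i2 and -0.78 ± 0.30 for Nr1i3 (adjusted p = 0.412 and 0.226). The other Nr1i2 probe set gave -1.19 for HFD minus ND in KO livers and -0.56 in WT livers.

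**Figure D1:**
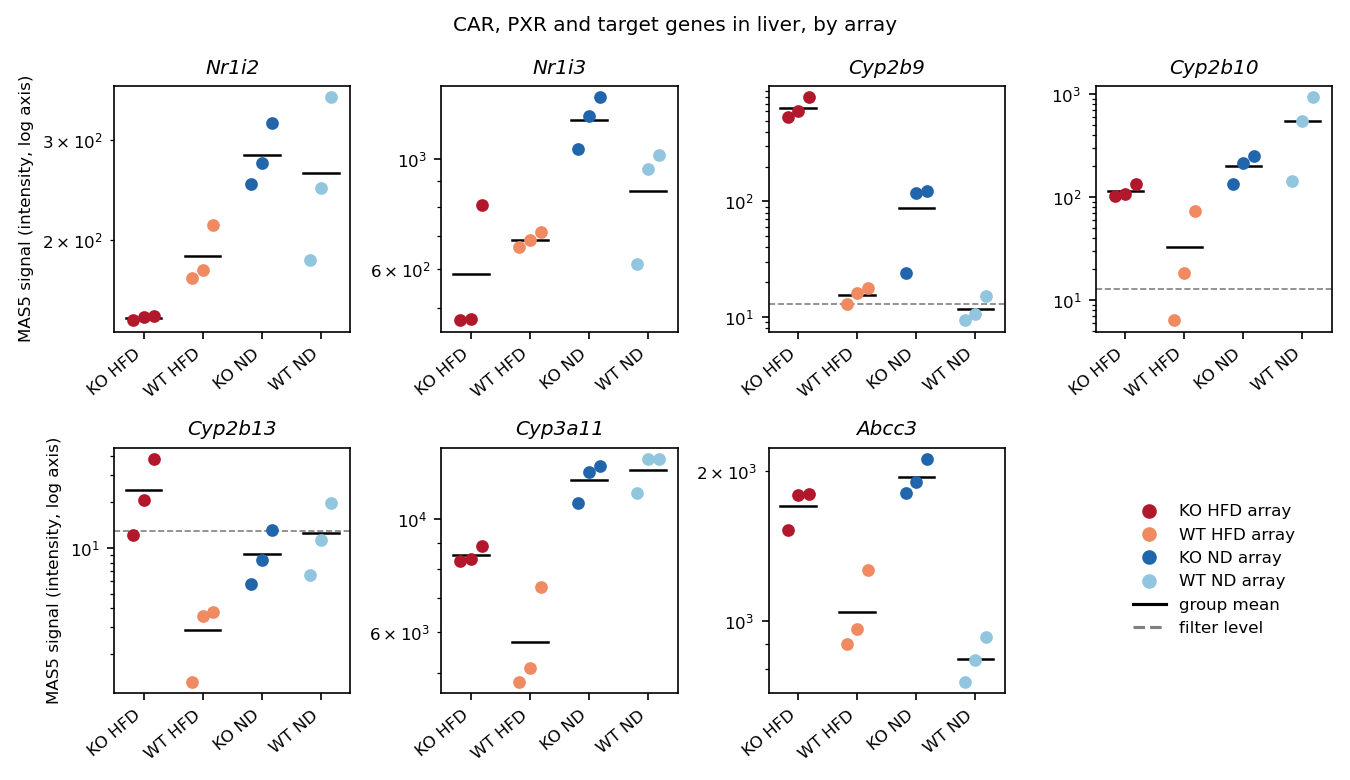
Liver MAS5 signal (log axis) of each of the 7 genes that have a probe set of their own, 1 point per array, sorted by signal within its group, with the group mean as a bar. The dashed line is the filter level of 13.0, drawn where signals come near it. Cyp2b9 stood at 534.5 to 798 in KO mice on HFD, against 12.8 to 17.65 in WT mice on HFD.

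Cyp2b9 showed the largest genotype difference of the 6 genes tested. Its signals were 798, 534.5 and 608 in KO mice on HFD, against 16.0, 17.65 and 12.8 in WT mice on HFD. The groups lay far apart, at means of 647 ± 136 and 15.5 ± 2.45 (SD, n = 3 each). The log2 difference was 5.37 ± 0.48, or 41.5-fold (adjusted p = 3.57e-05), and it passed under all alternatives run, at 5.21 to 5.50. The WT arrays lay near the filter level, with mouse 560 under it, so the size of this difference is uncertain. Cyp2b9 reached the filter through its KO arrays, and among all genes without a filter the adjusted p was 9.98e-05. On ND the signals were 119, 24.15 and 122 in KO mice, against 9.35, 10.7 and 15.1 in WT mice. Here too every KO array was above every WT array, with 1 KO mouse (719) well below the other 2. The fitted log2 difference was 2.62 ± 0.48 (adjusted p = 0.00966), and since 2 of the 3 WT arrays were under the filter level its size is uncertain. Without a filter the adjusted p was 0.0173. Without mouse 719 the fitted value was 3.39. Without mouse 718 or 720 it was 2.24 or 2.22, close to the threshold (adjusted p = 0.0471 and 0.0456). With the 2 compared groups fitted alone the adjusted p was 0.0405.

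Within KO mice, Cyp2b9 exceeded its ND level 9.03-fold on HFD (log2 3.17 ± 0.48, adjusted p = 0.00105), and by 2.40 on the log2 scale without mouse 719 (adjusted p = 0.000371). WT mice had signals near the filter level on both diets and a difference of 0.42 (adjusted p = 0.621). The interaction was 2.75 ± 0.68 and missed the threshold (adjusted p = 0.0793), and without mouse 719 it was smaller, at 1.98, and passed (adjusted p = 0.0339). Among all genes without a filter, with no mouse left out, the adjusted p was 0.00213 for diet in KO mice and 0.130 for the interaction.

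Cyp2b13, with the near-identical promoter window, was dim, and its arrays were also higher in KO than in WT livers on HFD. It had 20.8, 12.2 and 38.6 in KO mice on HFD, against 3.75, 3.58 and 1.31 in WT mice on HFD. All 3 KO arrays were above the WT arrays, but the KO array at 12.2 was itself under the filter level of 13.0. The KO mean was 1.84 times that level, which is no firm lower bound. It was not part of the main test. Among all genes without the filter, its fitted difference of 3.04 had an adjusted p of 0.0267. On ND the groups overlapped, at 8.29, 13.05 and 5.79 in KO mice, against 11.3, 6.60 and 19.8 in WT mice. How far a probe set for one of these similar transcripts also binds the other was not tested.

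Cyp2b10 followed the diet in WT livers and varied widely between WT mice. Its signals were 133, 107 and 102 in KO mice on HFD and 18.2, 73.9 and 6.37 in WT mice on HFD. On ND they were 133, 247 and 214 in KO mice and 143, 928 and 549 in WT mice. The highest WT array exceeded the lowest 11.6-fold on HFD and 6.49-fold on ND, against 1.31-fold and 1.86-fold in KO mice. In WT livers HFD was 20.4-fold below ND (log2 -4.35 ± 0.74, adjusted p = 0.00301), with no overlap. The WT mean on HFD was 0.0608 of that on ND. WT mouse 560, at 6.37, was under the filter level, so the size of this fall is uncertain. Leaving out mouse 547, 560 or 686 in turn gave -5.28, -3.51 and -5.12. In KO livers the same contrast was -0.76 ± 0.74 and did not pass (adjusted p = 0.529). It passed only with the 2 compared groups fitted alone (adjusted p = 0.0385). The interaction of 3.59 ± 1.05 did not pass either (adjusted p = 0.130). It was 4.52 without mouse 547 (adjusted p = 0.0419), 4.37 without mouse 686 (adjusted p = 0.0528) and 2.75 without mouse 560 (adjusted p = 0.159).

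Between genotypes on HFD, all 3 KO arrays for Cyp2b10 were above all 3 WT arrays, yet the difference of 2.47 ± 0.74 (5.54-fold) missed the threshold (adjusted p = 0.0633). The KO mean was 3.48 times the WT mean. The log2 difference was 3.397 without WT mouse 547 (adjusted p = 0.0126) and 1.63 without WT mouse 560 (adjusted p = 0.166), and leaving out each of the other 4 mice in turn gave 2.35 to 2.55, not past the threshold. On ND KO minus WT was -1.12 with overlapping groups (adjusted p = 0.415). Cyp2b10 has 2 further probe sets, and in WT mice the order of the mice was the same in all 3. In WT mice on HFD, mouse 560 was lowest, at 2.56, 6.37 and 13.9, and mouse 547 highest. In WT mice on ND, mouse 687 was highest, at 744, 928 and 457. HFD minus ND in WT livers was -3.99 and -3.15 for the other 2 probe sets (adjusted p = 0.0178 and 0.00219 in a fit of 19234 probe sets). The probe set of highest mean signal and 1 of the others carry a suffix with which Affymetrix marks probe sets that can match several transcripts.

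**Figure D2:**
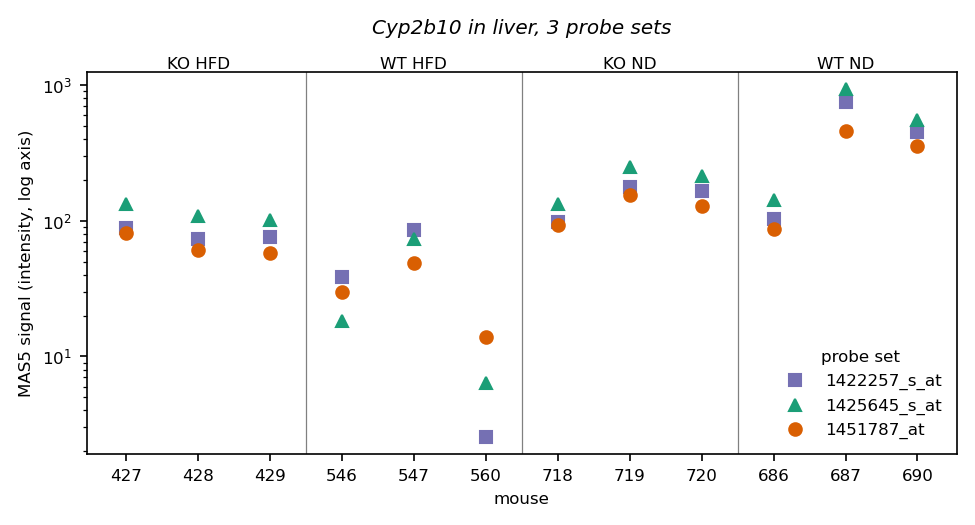
Liver MAS5 signal (log axis) of the 3 Cyp2b10 probe sets in each of the 12 mice, grouped by genotype and diet. Of the 12 mice, mouse 560 was lowest and mouse 687 highest in each probe set, and the WT mice keep the same order within each diet.

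Cyp3a11, which encodes the main inducible CYP3A enzyme of mouse liver, was lower on HFD in both genotypes. KO mice had 8372, 8885 and 8269 on HFD, against 12759, 10786 and 12382 on ND, a difference of -0.49 ± 0.14 (adjusted p = 0.0313). WT mice had 5106, 4796.5 and 7357 on HFD, against 13142, 11279 and 13164 on ND. Neither genotype's diets overlapped, and the fall in WT mice was 2.21-fold (log2 -1.15 ± 0.14, adjusted p = 0.000447). On HFD the KO arrays were above the WT arrays, by 0.59 ± 0.14 or 1.51-fold (adjusted p = 0.0264). The calls for genotype on HFD and for diet in KO mice changed easily. The KO against WT call on HFD was lost under 8 of 12 alternatives, among them leaving out mouse 427, 428, 429, 546 or 547 in turn, with adjusted p from 0.00191 to 0.1004. The diet call in KO mice was also lost under 8 of 12, among them leaving out mouse 427, 428, 429, 718 or 720, with adjusted p from 0.00895 to 0.0982. On ND KO minus WT was -0.07 (adjusted p = 0.832), and the interaction of 0.66 ± 0.20 did not pass (adjusted p = 0.143), except without mouse 560 (adjusted p = 0.0234).

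Abcc3 was higher in KO than in WT livers on both diets and was not called for diet. On HFD it had 1801, 1790.3 and 1522 in KO mice, against 962, 901 and 1265 in WT mice. On ND it had 1898, 2117 and 1809 in KO mice, against 835, 754 and 927 in WT mice. On either diet the lowest KO array was above the highest WT array. KO minus WT was 0.72 ± 0.13 on HFD (1.65-fold, adjusted p = 0.00731) and 1.21 ± 0.13 on ND (2.32-fold, adjusted p = 0.000337), and both passed under all alternatives run. HFD minus ND was -0.19 in KO mice and 0.30 in WT mice (adjusted p = 0.364 and 0.160).

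Counted over the 6 genes tested in liver, 3 rose and 0 fell in KO against WT mice on HFD, where 6.71% of all 11125 genes tested were called. On ND 2 rose and 0 fell, against 4.71% of all genes. For HFD against ND, 1 rose and 3 fell in KO mice (16.5% of all genes called), and 0 rose and 2 fell in WT mice (12.5%). The median log2 difference of the 6 genes was 0.66, 0.33, -0.62 and -0.37 in these 4 comparisons, against -0.03, -0.05, 0.02 and -0.0029 over all genes tested. For the genotype by diet interaction 0 of 6 were called by limma, against 0.989% of all genes. At an unadjusted p under 0.05 the counts were 5 of 6, and 1723 of 11125. All these counts are a description. The genes, and the lists below, were chosen with earlier results of these data known, and Cyp2b9 reached the filter through its KO arrays. The Cyp3a11 call for genotype on HFD changed easily, as given above.

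**Figure D3:**
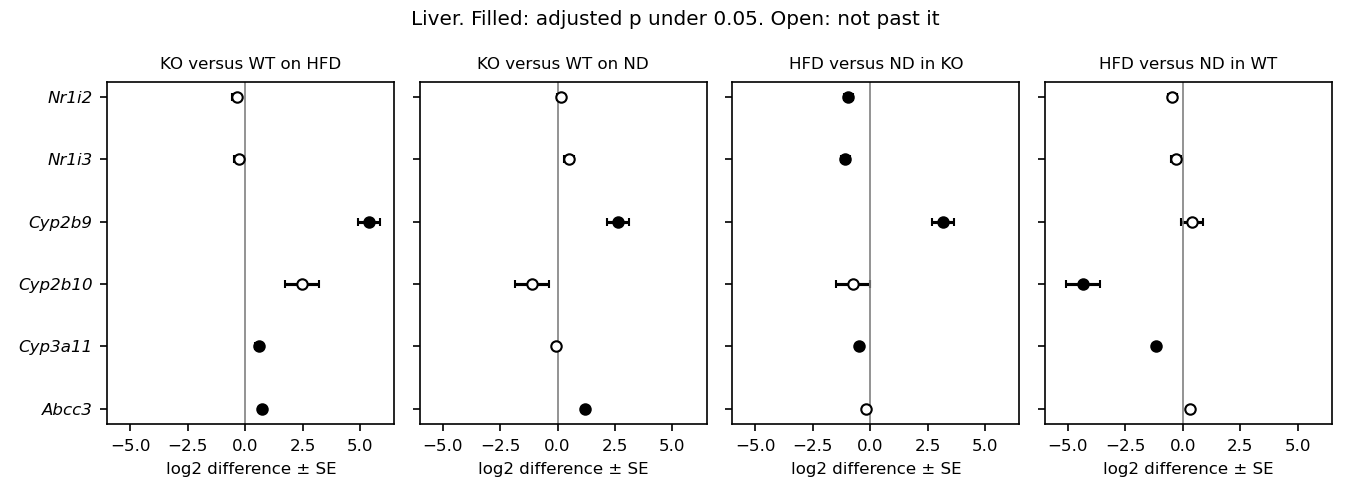
Log2 difference ± SE of the 6 genes tested in liver, for KO versus WT on HFD and on ND and for HFD versus ND in KO and in WT mice. Filled points passed an adjusted p of 0.05. Cyp2b9 reached 5.37 for genotype on HFD, and Cyp2b10 -4.35 for diet in WT mice.

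The genes did not vary as 1 block over the 12 liver arrays. Of the 15 pairs, Pearson's r was highest for the 2 receptors (0.72), Cyp2b9 with Abcc3 (0.71) and Cyp2b10 with Cyp3a11 (0.66). It was 0.04 for Cyp2b9 with Cyp2b10 and 0.02 for Cyp2b9 with Cyp3a11. These are descriptions over arrays that share genotype and diet, and they carry no test. Among all genes tested, the closest to Cyp2b9 were Lgals1 (r = 0.97), which encodes a galectin, Cd36 (0.96), a fatty acid translocase, and Nudt9 (0.95). Cyp3a11 was closest to the glutathione transferase Gstt3 (0.98), Bag2 and Mpdu1. Abcc3 was closest to the carboxylesterase Ces1g (0.98), the retinol dehydrogenase Rdh16 and Gclc, a subunit of the enzyme that limits glutathione synthesis (both 0.97). Cyp2b10 lay nearest to Mras and Dcakd (both 0.92) and Prrg4 (0.91), Nr1i2 to Dhrs4 (0.93), Sec23a and Ddb1 (both 0.92), and Nr1i3 to Zfp385a (0.92), Usp53 (0.91) and Acot4 (0.89).

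Of 17 partners and cofactors of the receptors listed, 14 were tested. In KO against WT mice on HFD only Rxrb fell, at 294 in KO livers and 518 in WT livers (means of 3, log2 -0.88 ± 0.21, adjusted p = 0.0245), and on ND none of the 14 was called. On HFD against ND, 1 rose and 3 fell in KO mice, and 4 rose and 2 fell in WT mice. Over all genes tested, as given above, 6.71% and 4.71% were called for genotype on HFD and ND and 16.5% and 12.5% for diet in KO and WT mice, and the counts of this and the next lists stand beside those shares. Dnajc7, a cochaperone that holds CAR in the cytoplasm, fell to 97.3 on HFD, against 365 on ND, in KO mice (log2 -1.91) and to 106, against 310.5, in WT mice (-1.48). Ppargc1a, a coactivator of fasting, fell in KO mice (-1.45) and in WT mice (-1.30), while Cebpa rose in both (0.81 in KO and 1.27 in WT mice). Ncoa3, another coactivator, rose in WT mice (0.76). Hnf4a, the hepatocyte factor, fell in KO mice on HFD, at 2446 against 3888 on ND (-0.67, adjusted p = 0.00553). The list medians were -0.23 and 0.03 for genotype on HFD and ND, and -0.13 and 0.20 for diet in KO and WT mice.

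Other phase 1 targets split in both directions by genotype. Of 19 listed, 14 were tested, and 2 rose and 4 fell in KO mice on HFD (6.71% of all genes called), while 2 rose and 2 fell on ND (4.71%), with medians of -0.04 and 0.12. Cyp2c37, a P450 known to be induced through CAR, averaged 68.4 in KO livers and 3606 in WT livers on HFD (log2 -5.74 ± 0.21, adjusted p = 6.26e-09), and 54.2 in KO livers and 3302 in WT livers on ND (-5.92). Its relative Cyp2c38 ran the other way, at 1092 in KO livers and 152 in WT livers on HFD (2.86 ± 0.18) and 890.2 in KO livers and 219 in WT livers on ND (2.04). Aldh1a7, an aldehyde dehydrogenase, rose on HFD (0.89) and on ND (0.97). Cyp2c50 fell on HFD (-1.82, adjusted p = 0.00173), and Cyp3a13 on ND (-1.004, adjusted p = 0.000685). Cyp2c genes are close copies of one another, and probe sets may bind more than 1 of them. With diet, 0 rose and 2 fell in KO mice, and 1 rose and 3 fell in WT mice (medians -0.18 and -0.03). The carboxylesterase Ces2a fell in both (-1.73 for KO and -0.73 for WT mice), with an interaction of -0.998 (adjusted p = 0.0451). Cyp3a13 fell in WT mice (-0.85), and its interaction was 0.90 (adjusted p = 0.0307). Cyp1a2 fell in KO mice (-0.91), and in WT mice Cyp3a25 fell (-0.51) and Cyp2c54 rose (1.21).

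Of 21 conjugation enzyme genes listed, 19 were tested. Of these, 5 rose and 3 fell in KO against WT mice on HFD (median 0.15, 6.71% of all genes called), and 2 rose and 3 fell on ND (median 0.15, 4.71%). All 4 listed glutathione transferase genes of the mu class, Gstm1 to Gstm4, were among those that rose on HFD, a grouping made after their values were seen. The calls of Gstm1 and Gstm4 were not run under the alternatives. Whether a probe set binds more than 1 of the 4 was not tested. Gstm3 averaged 620.0 in KO livers and 57.9 in WT livers (log2 3.204 ± 0.45, adjusted p = 0.00136), and Gstm2 556 in KO livers and 134 in WT livers (2.05 ± 0.22, adjusted p = 0.000191). Gstt3 rose too (1.06), while Gstp1 fell (-0.45). On ND Gsta2 rose (1.40) and Papss2, Sult5a1 and Sult1d1, which serve sulphation, fell (-0.80, -1.39 and -0.92). On HFD against ND, 1 rose and 4 fell in each genotype (medians -0.14 in KO and -0.23 in WT mice). Gstt3 fell by 1.02 in KO and by 2.32 in WT mice on the log2 scale, with an interaction of 1.30 (adjusted p = 0.0481). Gstm2 rose in KO mice (0.82) and fell in WT mice (-1.20), with an interaction of 2.02 ± 0.31 (adjusted p = 0.0120). Sult1d1 fell in both (-0.91 in KO and -1.12 in WT mice), Gsta2 in KO mice (-1.48), and Ugt2b34 rose in WT mice (0.60).

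Among 8 tested drug transporter genes of 9 listed, 1 rose and 1 fell in KO mice on HFD (6.71% of all genes called), and again on ND (4.71%), with medians of 0.07 and 0.29. The bile acid and drug importer Slco1a1 fell on HFD (-1.42, adjusted p = 0.00335) and Abcb1a, a drug exporter, rose (1.52, adjusted p = 0.0336). On ND the exporter Abcg2 rose (0.55) and Abcc2, which exports conjugates into bile, fell (-0.61). With diet, 1 rose and 2 fell in KO mice, and 3 rose and 1 fell in WT mice (medians 0.12 and 0.26). Slco1a4, a known PXR target, fell on HFD in KO (-1.68) and WT mice (-1.70), and Slco2b1 rose in both (0.43 in KO and 0.52 in WT mice). Abcg2 rose in WT mice (0.50). Slco1a1 fell on HFD in KO mice (-0.81) and rose in WT mice (1.08), with an interaction of -1.90 ± 0.33 (adjusted p = 0.0197).

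Of 5 genes of the growth response to CAR, all tested, Gadd45a rose in KO against WT mice on HFD, with means of 350.2 in KO livers and 63.9 in WT livers (log2 2.41 ± 0.56, adjusted p = 0.0230), and 0 were called on ND. The list medians were 0.97 and -0.47. In KO mice on HFD against ND, Gadd45a rose (4.17, adjusted p = 0.000538) and so did the cyclin gene Ccnd1 (1.72, adjusted p = 0.0196). In WT mice Gadd45a rose (2.51, adjusted p = 0.0123), with ND signals near the filter level, and Gadd45b and Mdm2 fell (-2.77 and -1.07). The value of Gadd45b ranged from -3.67 to -1.63 over the alternatives. The list medians for diet were 1.04 in KO and 0.42 in WT mice.

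**Figure D4:**
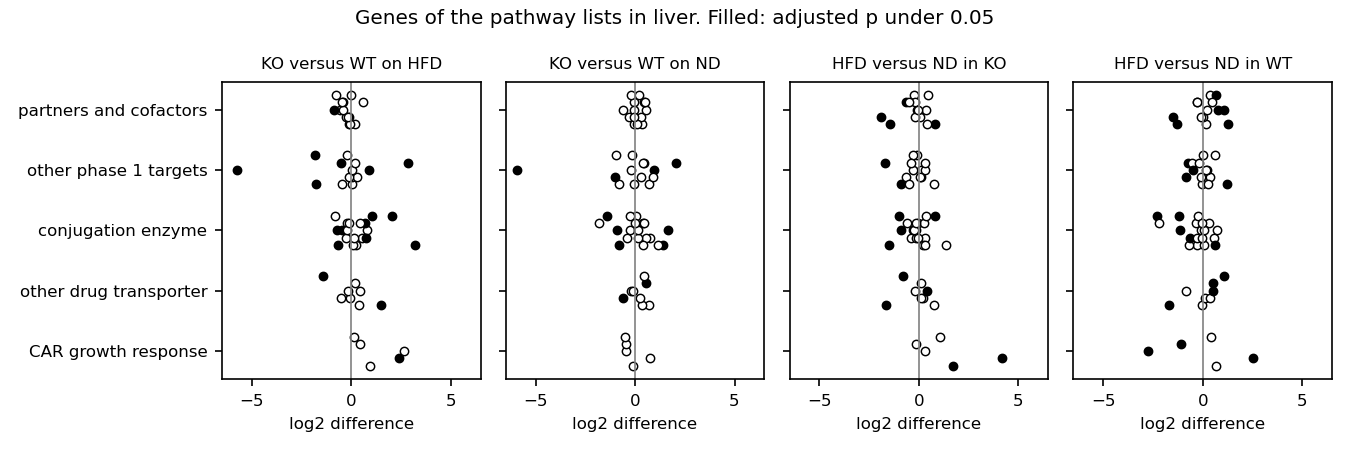
Log2 differences of the tested genes in 5 lists of the CAR and PXR pathway in liver, for 4 comparisons, with filled points for an adjusted p under 0.05. Points lie on both sides of 0 in most lists, and the one farthest to the left in both genotype comparisons is Cyp2c37, at -5.74 on HFD and -5.92 on ND.

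The calls given for genes of these lists and of the 2 lists of sex-predominant genes below, without Gstm1 and Gstm4, number 71. Of these 71, 41 passed under every alternative run, 30 lost the threshold under at least 1, and none turned direction. For KO against WT on HFD the calls lost were those of Rxrb, Gstp1, Abcb1a and Gadd45a, and on ND those of Papss2, Gsta2, Sult5a1, Sult1d1, Abcg2, Abcc2 and Hsd3b5. For diet in WT mice they were those of Ncoa3, Cyp3a25, Cyp2c54, Ugt2b34, Slco2b1, Abcg2, Gadd45a and Gadd45b. For diet in KO mice they were those of Cebpa, Cyp1a2, Gstm2, Slco2b1, Slco1a1, Ccnd1 and Cyp2u1, and for the interaction those of Cyp3a13, Ces2a, Gstt3 and Slco1a1. For each of these except Papss2, leaving out a single array was among the alternatives that ended the call, and for Papss2 it was averaging its probe sets.

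Of 70 genes tested in the 5 pathway lists and the 2 lists of sex-predominant genes, 5 were called in the same direction for genotype on both diets, against 117 of all 11125 genes tested (1.05%). Of these, Cyp2c37, Cyp2c38, Aldh1a7 and Papss2 lie on chromosome 19, and Sult1d1 on chromosome 5. Ffar4 is also on chromosome 19, and in the order of annotated genes Cyp2c38 is 32 genes away from it, Cyp2c37 38, Papss2 111 and Aldh1a7 283. On chromosome 19 lay 12 of the 70. Of the 117 genes, 9 (7.69%) lay on it, and of the 11108 tested genes with a known chromosome 410 (3.69%). In mice of a mixed 129/Sv and C57BL/6 background, the loss of GPR120 and the DNA near its gene cannot be told apart. None of the 10 genes that this account is about lies on chromosome 19.

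Because Cyp2b9 and Cyp2b13 are female-predominant in mice, other genes with a known sex difference were read beside them. Of 10 female-predominant genes listed, 3 were tested, and 0 were called in KO against WT mice on HFD (median -0.19). On ND Cyp17a1 fell, at 107 in KO livers and 1440 in WT livers (log2 -3.47, adjusted p = 0.000685). It also fell on HFD against ND in WT mice (-3.11). Of 8 tested male-predominant genes of 10 listed, 0 rose and 3 fell in KO mice on HFD (median -0.56), where 6.71% of all genes were called. Hsd3b5, a hydroxysteroid dehydrogenase gene, averaged 590.0 in KO livers and 3004 in WT livers (-2.42, adjusted p = 0.00628). Cyp7b1, an oxysterol hydroxylase gene, averaged 3301 in KO and 7662 in WT livers (-1.25), and Slco1a1 fell as given above. On ND 1 rose and 0 fell, Hsd3b5 itself (1.64, median 0.05). On HFD against ND, 1 rose and 2 fell in KO mice (median 0.03) and 2 rose and 1 fell in WT mice (median 0.39). Hsd3b5 rose 25.2-fold in WT mice (4.66), with an interaction of -4.06 (adjusted p = 0.0120), and Elovl3 fell in KO and WT mice (-1.74 and -1.98, the WT value being -2.61 without mouse 560). In KO mice Cyp2u1 rose (0.71). The labels used here do not give the sex of each mouse, but the fat is epididymal, a male depot.

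Some markers of other cells differed by genotype on HFD, in the livers where Cyp2b9 was highest, and 6.71% of all genes were called there. Hepatocyte markers summed to 58570.4 to 65787 in KO livers and 73965 to 84970.3 in WT livers, and 3 of 8 fell and 0 rose. Pericentral hepatocyte markers summed to 22882 to 25918 in KO livers and 24520.3 to 29335 in WT livers, with overlap, and 1 of 9 rose and 1 fell. Kupffer cell and macrophage markers summed to 5881 to 7957 in KO livers and 4679 to 5929.5 in WT livers, with overlap and 2 of 9 higher. Stellate cell markers summed to 3439 to 4520.2 in KO livers and 2690.3 to 3158 in WT livers, with 1 of 6 higher, Col3a1 reaching 434 to 977 in KO, against 110 to 128 in WT. Both tested adipocyte markers rose, Fabp4 at 673 to 925 in KO livers and 226 to 285 in WT livers, and Cidec at 191 to 206 in KO livers and 27.5 to 52.3 in WT livers. The adipocyte list summed to 887 to 1139 in KO livers and 277 to 335 in WT livers. Of the defining adipocyte genes, Adipoq was at 1.29 to 18.9 in KO livers and 6.72 to 21.3 in WT livers, and Lep at 0.62 to 6.69 in KO livers and 1.93 to 7.37 in WT livers. The ratio of the 3′ to the 5′ probe set of Actb, a measure of RNA quality, was 3.23 to 3.28 in KO and 3.98 to 4.25 in WT livers on HFD, against 2.36 to 2.53 in KO and 2.16 to 2.37 in WT livers on ND. The part of these in the results above was not tested.

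In fat most of the genes with a probe set of their own were under the filter level. In the joint fit of both tissues, with 1 common probe set a gene, 82.6% of 11454 genes were called between liver and fat. Nr1i2, Nr1i3 and Cyp2b9 entered it through their liver signal, so the values that follow are a description. The excess in liver was 8.43 ± 0.34 on the log2 scale for Nr1i3, 8.09 ± 0.29 for Cyp3a11, 4.28 ± 0.16 for Nr1i2, 3.07 ± 0.09 for Abcc3, 2.73 ± 0.25 for Cyp2b9 and 2.17 ± 0.43 for Cyp2b10. For genes under the filter level in fat these sizes are uncertain, and that of Nr1i3, with arrays under the floor, depends on the floor. Cyp2b9 had signals of 4.18 to 13.8 in KO and 6.61 to 11.4 in WT fat on HFD. All lay under the filter level, so a genotype difference in fat cannot be judged. The fitted genotype difference of Cyp2b9 on HFD was greater in liver than in fat by 5.51 ± 0.71 (adjusted p = 9.39e-05). For this difference 11.1% of genes were called. Cyp2b9 entered the joint fit through the KO livers, and among all genes without a filter the adjusted p was 0.000115. That fit took the 2 tissues of a mouse as separate arrays. With the mouse as a replicate block the adjusted p of Cyp2b9 was larger, at 0.00176. For this difference Cyp2b10 missed the threshold at 3.65 ± 1.22 (adjusted p = 0.0582) and passed with the mouse as a replicate block (adjusted p = 0.0382). It was 4.70 without mouse 547 (adjusted p = 0.0248) and 2.11 without mouse 560 (adjusted p = 0.310).

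Cyp3a11 and Abcc3 were lower on HFD in fat of both genotypes. Cyp3a11 had 21.7, 11.5 and 23.8 in KO fat on HFD, against 225, 29.7 and 249 on ND. In WT fat it had 6.43, 3.17 and 4.21 on HFD, against 70.9, 313 and 118 on ND, which is at least 8.67-fold lower, or at least 4.896-fold without mouse 687. The diets did not overlap in either genotype, and the fitted log2 values were -2.71 in KO (adjusted p = 0.0136) and -4.97 in WT fat (adjusted p = 0.000291). They were -3.71 without KO mouse 719 and -4.38 without WT mouse 687, and the call in KO mice was lost without mouse 428, 718 or 720. Cyp3a11 reached the fat filter through its ND arrays. Among all genes without a filter its adjusted p was 0.0217 in KO and 0.000556 in WT fat. Abcc3 had 80.4 to 98.4 in KO fat on HFD, against 245 to 286 on ND (-1.61 ± 0.20, adjusted p = 7.61e-05), and 47.5 to 88.0 in WT fat on HFD, against 343 to 401 on ND (-2.44 ± 0.20, adjusted p = 4.05e-06). So 2 of 3 tested genes were called for diet in each genotype. Of all 11613 genes 48.7% were called in KO and 55.3% in WT mice, in either direction, so this is near the background. Both genes were lower on HFD, as were 3090 of the 11613 genes in KO and 3184 in WT mice.

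The fat on ND also carried transcripts of other tissues, in the same arrays. Lcn5, an epididymis gene, was at most 7.83 on HFD, against 6872 to 8712 in KO and 6230 to 10683 in WT mice on ND. The hepatocyte gene Alb was at 345 to 568 in KO and 83.5 to 434 in WT fat on HFD, against 475 to 2435 in KO and 785 to 1926 in WT fat on ND. On ND the mouse of lowest Alb was also the one of lowest Cyp3a11, in KO (719) and in WT fat (686). On HFD the mouse of highest Alb was the one of lowest Cyp3a11, in KO (428) and in WT fat (547). The epididymis and sperm list summed to 18.4 to 583 on HFD over both genotypes, against 26410.1 to 43219 on ND. The hepatocyte list summed to 1982 to 4697 in KO and 435 to 2067 in WT fat on HFD, and to 1075 to 5314 in KO and 1861 to 3794 in WT fat on ND. Their part in the fall of Cyp3a11 and Abcc3 was not tested.

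No gene of the 3 was called by limma for genotype in fat. For KO against WT on HFD 22.5% of all genes were called, on ND 0.250%, and for the interaction 11.0%, and at an unadjusted p under 0.05 the count was 1 of 3 in each, against 35.9%, 13.9% and 27.9% of all genes. On HFD Cyp3a11 had the widest gap, 2.04 ± 0.77 on the log2 scale (adjusted p = 0.0816). Without WT mouse 547 Abcc3 passed on HFD (adjusted p = 0.0455) and for the interaction (adjusted p = 0.0283). Cyp2b10 in fat was 17.3, 17.3 and 5.78 in KO and 12.5, 22.6 and 70.9 in WT mice on HFD, and 16.0, 29.3 and 20.8 in KO and 22.4, 230.0 and 52.2 in WT mice on ND. Mouse 687, the highest in liver, was also the highest in fat.

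**Figure D5:**
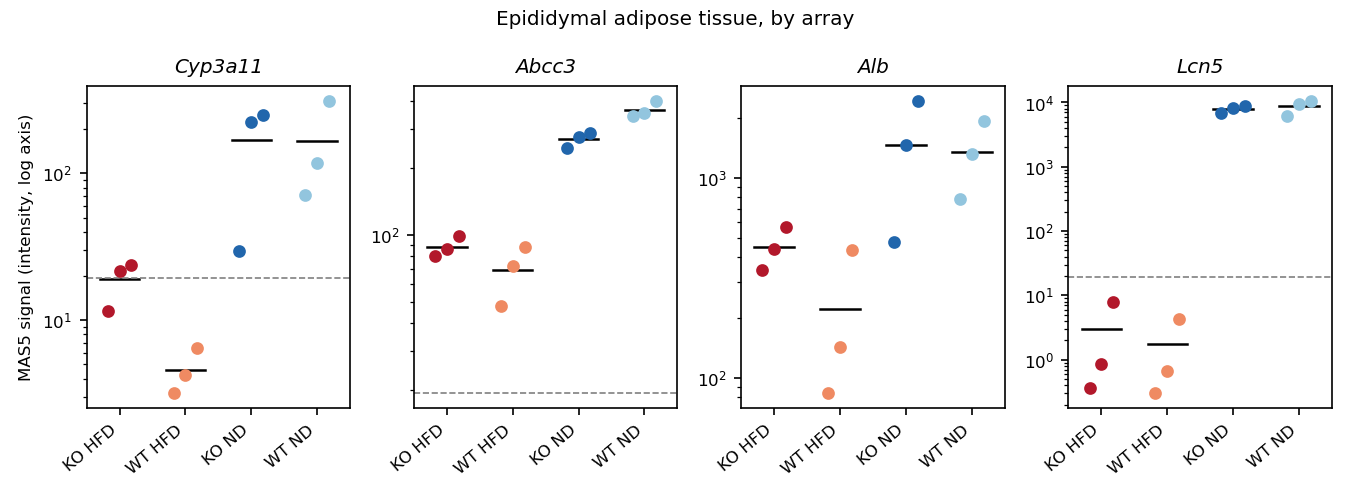
MAS5 signal (log axis) of Cyp3a11, Abcc3, the hepatocyte gene Alb and the epididymis gene Lcn5 in epididymal fat, 1 point per array, sorted by signal within its group, with group means as bars and the filter level of 19.3 dashed where signals come near it. The group means of all 4 genes were higher on ND in both genotypes, with Lcn5 at no more than 7.83 on HFD and no less than 6230 on ND.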

How the data were processed

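RNA from liver and epididymal fat of 12 mice was hybridised to 24 Affymetrix arrays, with 3 arrays in each of 8 groups. Per the submitters' processing notes, the authors deposited MAS5 signals, a linear intensity scale, and no MAS5 version is stated. No column was left out. The members and lists were chosen with earlier results of these data known.

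Of 45101 probe sets, 64 controls were left out. The platform annotation gave 1 gene to 34945, several to 932 and none to 9160. In each tissue the probe set of highest mean log2 signal stood for its gene. Signals under the 10th percentile of a tissue (1.10 in liver, 1.08 in fat) were set to that value before taking log2. Genes whose mean log2 signal reached that of the median probe set were tested, 11125 in liver and 11613 in fat. The 4 groups of a tissue entered 1 fit in limma 3.58.1 (R 4.3.3), with an intensity trend, 8 residual degrees of freedom and Benjamini-Hochberg adjustment. A joint fit of all arrays (11454 genes, 1 probe set each) compared the tissues. Where every array of the dimmer group was under the filter level, the brighter mean over that level is given as a lower bound. That rule was chosen after values were seen. For Cyp2b13 in liver a KO array on HFD was also under the level, so its ratio is not called a bound. Named were Ffar4, all members, up to 4 called genes of smallest p per list and comparison, and the 3 genes most correlated with each member.

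The same mouse gave both tissues, per the labels, so the tissues are paired by mouse. Correlations between tissues of a mouse's deviations from its groups were 0.0198 to 0.111 and exceeded 0.1 in 3 of 12 mice. Replicates are separate mice. Other settings tried were no floor, no filter, quantile normalization, averaged probe sets, no trend, the compared groups alone, leaving out 1 array, the mouse as a replicate block, and, chosen after seeing the data, a fit of single probe sets and leaving out mice 427, 547, 686 and 690 together, which does not remove the epididymis transcripts of the other ND fat. The fit was tested on simulated data. Promoters came from RefSeq.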

Additional observations from a re-analysis of the deposited data

Results flagged for a closer look

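Cyp2b9 differed by genotype on HFD in liver, and in fat of the same mice it was too dim for a difference to be judged. KO minus WT was greater in liver than in fat by 5.51 on the log2 scale (adjusted p = 9.39e-05, limma, joint fit of 24 arrays), higher in 3 of 3 KO livers than in any WT liver. Cyp2b9 entered that fit through the KO livers, and without a filter the adjusted p was 0.000115. With the mouse as a replicate block, which pairs liver and fat, the adjusted p was 0.00176. In fat the signals of the 2 genotypes overlapped, at 4.18 to 13.8 in KO and 6.61 to 11.4 in WT mice, under the filter level. The 5.51 thus describes the liver, and whether fat has a genotype difference cannot be told from it.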

How the results depend on the processing

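Of 30 liver results for single genes of the CAR and PXR set, 20 kept their direction and their side of the threshold under all alternatives, and of the 11 past it 9 did, the exceptions being the 2 smaller Cyp3a11 calls given above. Direction turned for Cyp3a11 in KO against WT livers on ND, at 0.13 after quantile normalization and -0.14 to 0.0084 when single arrays were left out. Leaving out single arrays also spanned 0 for Nr1i2 in liver on ND (-0.081 to 0.40), Cyp3a11 in fat on ND (-0.76 to 0.78), the Cyp2b10 interaction in fat (-0.50 to 1.18) and Nr1i2 in the difference between tissues (-0.40 to 0.14), none of them past the threshold. Counts of called genes ranged, with single arrays left out, from 2 to 3 for KO against WT on HFD in liver (2 without mouse 427, 428, 429 or 546), 3 to 4 for diet in KO livers (3 without mouse 427, 428, 429, 718 or 720) and 2 to 3 for diet in WT livers (3 without mouse 687), 0 to 1 for the liver interaction (1 without mouse 547, 560 or 719), 0 to 1 for KO against WT on HFD in fat and for the fat interaction (1 without mouse 547), 1 to 2 for diet in KO fat (1 without mouse 428, 718 or 720) and 1 to 2 for the difference between tissues (2 without mouse 547, 686 or 687). That last count was also 2 with the mouse as a replicate block, which pairs liver and fat and under which Cyp2b10 passed. The block changed no other count. With no filter the count was 2 as well, but there Cyp2b10 missed the threshold (adjusted p = 0.0782). Without a filter genes under the filter level are counted too, and the gene called beside Cyp2b9 was not one of the 6 tested. The cause of these changes was not tested. Leaving out mice 427, 547, 686 and 690 together left the fat counts at 0 and 0 for genotype on HFD and ND, 2 and 2 for diet in KO and WT mice, and 0 for the interaction. Low signals, such as those of Cyp2b13 in both tissues and of Cyp2b9 in WT livers, limit what can be seen.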
